A study of Homo sapiens with 3 samples.

Results

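The genes described are the core enzymes that make fatty acids from acetyl-CoA, lengthen them and put double bonds into them. The rule that picks them goes by name and uses no measured value, although the set was proposed with earlier results of these data known. It takes the rows of the gene table with the symbols ACLY, ACACA, ACACB, FASN, SCD, ELOVL1, ELOVL5, ELOVL6, FADS1 and FADS2. All 10 symbols were found among 30923 genes. The cells were QBC-939, an established human cholangiocarcinoma (bile duct cancer) cell line, labelled wild type in all 3 groups. The groups were cells treated with the labels oe-miR-182-5p, oe-miR-183-5p and oe-NC, where oe stands beside overexpression in the protocol and NC is the control to which both microRNAs were compared. Total RNA was sequenced from 1 library per group, and the titles of both microRNA libraries end in "mim". Levels of the mature microRNAs are not part of these gene counts, so the overexpression itself was not checked here, and a single line limits the model further.

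Fatty acid synthesis starts in the cytosol, where ATP-citrate lyase (ACLY) splits citrate into acetyl-CoA and oxaloacetate. Acetyl-CoA carboxylases (ACACA and ACACB) make malonyl-CoA, fatty acid synthase (FASN) condenses it into palmitate, elongases of the ELOVL family add further carbons in the endoplasmic reticulum, and desaturases (SCD, FADS1, FADS2) add double bonds. Most of these genes are textbook targets of the sterol regulatory element-binding proteins (SREBPs), membrane-bound factors that are escorted by SCAP, retained by INSIG proteins and cut in the Golgi before they enter the nucleus. The pathway is active in liver and in many carcinomas, where tumour cells make much of their own fatty acid.

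The sequences of both overexpressed microRNAs, from RefSeq (GRCh38.p14), are printed because their seeds, the bases at positions 2 to 8 in capitals, set which messages they can pair with.
hsa-miR-182-5p: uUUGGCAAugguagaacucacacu
hsa-miR-183-5p: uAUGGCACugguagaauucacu
The genes lie on the minus strand of chromosome 7, at chr7:129770447-129770470 for miR-182-5p and chr7:129774967-129774988 for miR-183-5p. The microRNAs share 18 of their first 22 bases but differ inside the seed, which is equal at 5 of 7 positions. A full seed match in a message therefore reads TTGCCAA for miR-182-5p and GTGCCAT for miR-183-5p.

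Of the 10 genes, ELOVL6 and SCD held such a match in the longest annotated 3' UTR (GENCODE 29, GRCh38). The matches are printed with 10 bases of message on each side, the match in capitals and the message strand shown.
ELOVL6 site 1, miR-182-5p, chr4:110050675-110050681, minus strand: gctagtgagtTTGCCAAaaccaaaggg
ELOVL6 site 2, miR-182-5p, chr4:110046913-110046919, minus strand: ggaagagactTTGCCAAgatccaccac
ELOVL6 site 3, miR-182-5p, chr4:110046797-110046803, minus strand: aggtcccagtTTGCCAAtgagcaacag
SCD site, miR-183-5p, chr10:100363626-100363632, plus strand: ttgtaatcgtGTGCCATggatctgatc
The ELOVL6 3' UTR is 5492 nt long and its sites begin at positions 657, 4419 and 4535 after the stop codon, the first of them followed by an A. The SCD site begins at position 2693 of a 3' UTR of 3901 nt. The other 8 genes held 0 matches to either seed. Among 10578 genes with a searched 3' UTR and a mean FPKM of at least 1, 15.2% held a miR-182-5p match and 12.2% a miR-183-5p match. Their median 3' UTR was 1318 nt, shorter than those of ELOVL6 and SCD, and the shares were not adjusted for length. FPKM, the level used throughout to compare genes, is a fragment count scaled to transcript length and library size. A match is a description of the sequence and shows no binding.

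The library totals were 61709874 counts for miR-182-5p, 67427313 for miR-183-5p and 64516706 for NC. Mitochondrially encoded genes took 16.7%, 16.1% and 13.5% of the counts in that order, and 12995, 12621 and 12342 genes reached an FPKM of 1. The epithelial keratins KRT8, KRT18 and KRT19 and EPCAM lay between 76.3 and 569 FPKM in all libraries, whereas KRT7, another keratin of bile duct epithelium, lay between 1.03 and 1.46. Their summed level with CDH1 was 5178, 5653 and 6303 CPM, a count scaled to the library total. Of 11 markers of hepatocytes, fibroblasts, fat, immune and endothelial cells, 7 were in the table, and they summed to 28.5, 18.9 and 18.8 CPM, most of it COL1A1 in every library. The hepatocyte gene ALB had 0, 9 and 5 counts and the leukocyte gene PTPRC 9, 0 and 0. Only 2 of these markers had a mean FPKM of at least 1, COL1A1 and the immune marker CD68. By the rule of size given below, CD68 was lower than NC with miR-182-5p and with miR-183-5p. COL1A1 was higher than NC by that rule with miR-182-5p only. The part of these shifts in the results was not tested. Values given as a triple stand for miR-182-5p first, miR-183-5p second and NC last. With 1 library per group there is no spread between replicates and no test between conditions. Each ratio of CPM carries an exact (Clopper-Pearson) 95% interval that covers counting error only, and reads without molecular identifiers are not independent molecules.

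As counted here, SCD, FASN, ACLY, ACACA and ELOVL1 stood at high level, while the polyunsaturated enzymes ELOVL5, FADS1 and FADS2 had few counts. Whether the way reads were counted lowered these few counts was not tested. SCD was the highest of the 10 genes in every library. Its levels were 285 FPKM with miR-182-5p, 245 with miR-183-5p and 196 with NC, which is 3.42, 3.20 and 2.84 times the level of FASN. FASN, ACLY, ACACA and ELOVL1 followed within a narrow band from 49.0 to 83.3 FPKM. Within that band the order was not the same in each library, as ELOVL1 lay above ACACA with NC and below it with either microRNA. ELOVL6 stood apart at 5.19 to 5.63 FPKM. ACACB, FADS1, FADS2 and ELOVL5 stayed under 1 FPKM in all 3 libraries. Thus 6 of the 10 genes had a mean FPKM of at least 1, and only these enter the counts of called genes, beside 12675 genes of the whole table that passed the same filter.

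**Figure D1:**
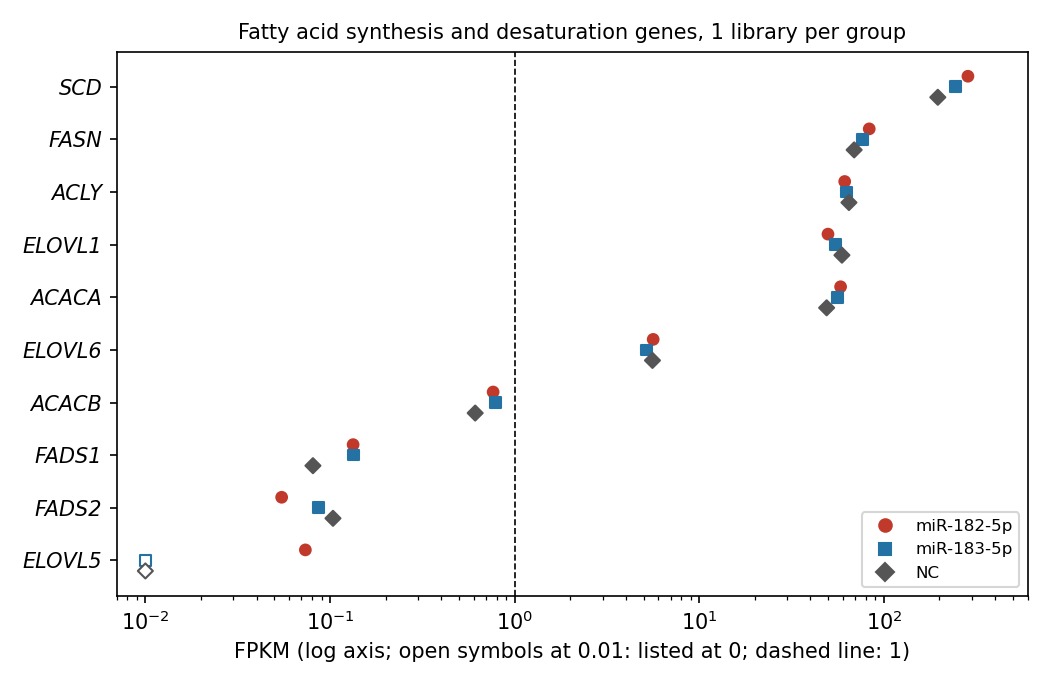
Level of each of the 10 genes in FPKM (log axis) in each library, 1 point per library and no error bars because there is 1 library per group. SCD is the highest gene in every library (196 to 285 FPKM), and 4 genes lie left of the dashed line at 1 FPKM; the open symbols for ELOVL5 mark a listed value of 0.

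With miR-182-5p, SCD, FASN and ACACA had higher levels than with NC, at 1.44, 1.19 and 1.17 times, while ELOVL1 was lower at 0.829 and ACLY slightly lower at 0.935. Only SCD reached the size called here, a level at least 25% higher or at least 20% lower. The count was thus 1 of 6 genes at least 25% higher, where 18.5% of all genes tested were, and 0 of 6 at least 20% lower, where 15.1% were. Counting error alone is small at this depth: the interval lay above 1 for 3 of 6 genes (35.1% of all genes tested) and below 1 for 2 of 6 (39.6%). The median log2 ratio was 0.11 over the 6 genes and -0.02 over all genes tested. These shares are near the background, so the count says nothing of the set as a whole. For genes as abundant as most of these enzymes the background is smaller. Of 1673 genes with a mean FPKM of at least 20, a limit chosen after the values were seen, 6.46% were at least 25% higher.

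With miR-183-5p the same 3 genes lay above NC by smaller amounts, SCD at 1.23 times, ACACA at 1.12 and FASN at 1.09. None of 6 genes was at least 25% higher (7.97% of all genes tested) or at least 20% lower (6.85%). The interval lay above 1 for 3 of 6 genes (24.5% of all genes) and below 1 for the other 3, ACLY, ELOVL1 and ELOVL6 (37.4%). The median log2 ratio was 0.03 over the 6 genes and -0.03 over all. SCD lay just under the limit, and 1.85% of the genes with a mean FPKM of at least 20 passed it. Both comparisons use the same NC library, so a low or high NC value moves both ratios of a gene together, and they are given side by side without a measure of their likeness.

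Set directly against each other, without NC, the miR-182-5p library was higher in SCD (1.17 times), FASN (1.09), ELOVL6 (1.09) and ACACA (1.04). It was lower in ACLY (0.976) and ELOVL1 (0.911). No gene of the 6 was at least 25% higher (12.3% of all genes) or at least 20% lower (5.74%). The interval lay above 1 for 4 of 6 genes (34.9% of all) and below 1 for 2 of 6 (30.4%), and the median log2 ratio was 0.09 beside 0.02 over all. With median-of-ratios size factors in place of library totals, the ACACA log2 ratio changed sign, from 0.06 to -0.01.

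**Figure D2:**
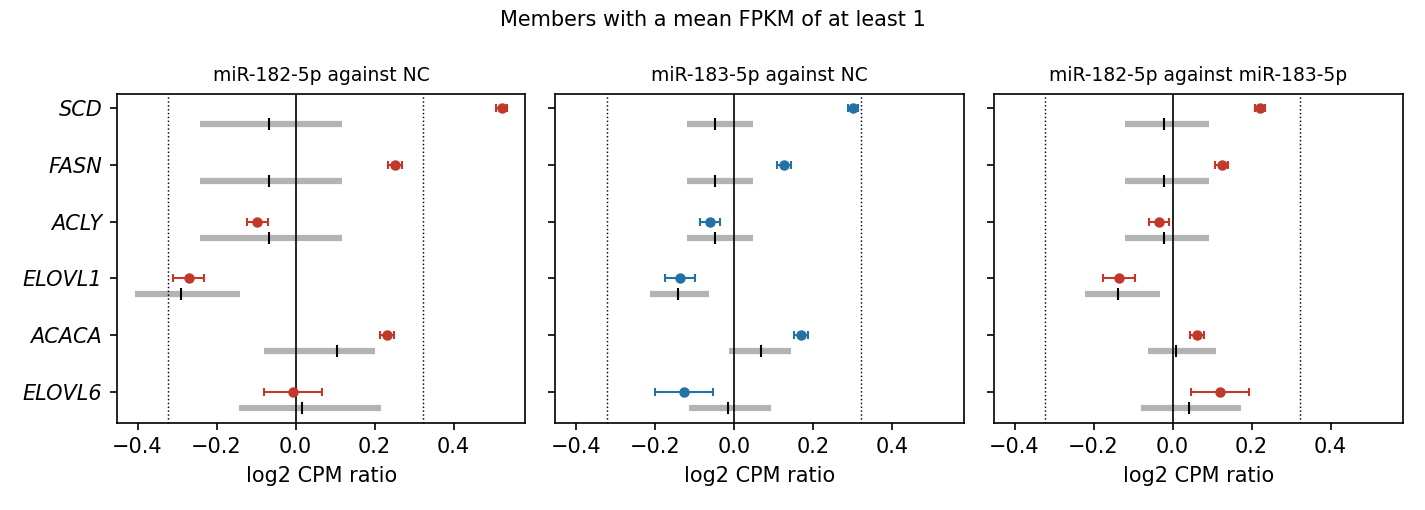
The log2 CPM ratio of the 6 genes with a mean FPKM of at least 1 in each comparison, with exact 95% counting intervals; dotted lines mark the sizes called (25% higher, 20% lower), and each grey bar spans the quartiles of genes of like level and length with a tick at their median. SCD is the only gene beyond a dotted line (0.52 for miR-182-5p against NC). SCD and FASN lie outside their grey bars in all 3 panels, and ACLY and ELOVL1 lie inside theirs in all 3.

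ACLY, ENSG00000131473, spans chr17:41866917-41930542 on the minus strand and supplies cytosolic acetyl-CoA. It had 23374 counts with miR-182-5p, 26166 with miR-183-5p and 26127 with NC, or 61.4, 62.9 and 64.7 FPKM. The ratios to NC were 0.935 (95% counting interval 0.919 to 0.952) for miR-182-5p and 0.958 (0.942 to 0.975) for miR-183-5p. ACLY was thus lowest with miR-182-5p and highest with NC, and all 3 levels lay close together. Genes of like level and length (mean FPKM of at least 20 and an implied transcript length of 6000 to 12000 nt, 430 genes) had a median log2 ratio of -0.07 for miR-182-5p against NC, beside -0.10 for ACLY. SCD differed from NC the other way, and its level was 4.65 times that of ACLY with miR-182-5p, 3.90 times with miR-183-5p and 3.03 times with NC.

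ACACA, ENSG00000278540 at chr17:37084992-37406836 (minus strand), is the cytosolic acetyl-CoA carboxylase, whose malonyl-CoA is the building block for synthesis. Its counts were 55527, 58133 and 49465 with miR-182-5p, with miR-183-5p and with NC, and its levels were 58.3, 55.9 and 49.0 FPKM. NC was the lowest of the 3. The ratio was 1.17 (1.16 to 1.19) for miR-182-5p and 1.12 (1.11 to 1.14) for miR-183-5p. Its implied transcript length was 15430 nt. The 64 genes with an implied length of at least 12000 nt and at least 20 FPKM had a median log2 ratio of 0.11 for miR-182-5p against NC. Their quartiles were -0.08 and 0.20, beside 0.23 for ACACA. The median of these genes was above 0 and their lower quartile below it, and ACACA lay a little above their upper quartile. With median-of-ratios size factors in place of library totals, every log2 ratio of this comparison shifts by -0.06.

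ACACB, ENSG00000076555 at chr12:109116595-109268226 (plus strand), is the carboxylase at the mitochondrial surface, where malonyl-CoA restrains fatty acid import for oxidation. It was counted 815, 919 and 695 times, or 0.765, 0.789 and 0.612 FPKM, so that ACACA exceeded it 76.2, 70.8 and 80.1 times per length in the 3 libraries. Its ratios to NC were 1.23 (1.11 to 1.36) and 1.27 (1.15 to 1.40) for miR-182-5p and miR-183-5p. NC was again the lowest, but the gene is under the level filter and enters no count of called genes.

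FASN, ENSG00000169710 at chr17:82078338-82098294 (minus strand), is the multifunctional enzyme that builds palmitate. It had 56803 counts with miR-182-5p, 56938 with miR-183-5p and 49891 with NC, and levels of 83.3, 76.5 and 69.0 FPKM. The levels were ordered miR-182-5p, miR-183-5p, NC. The ratios to NC were 1.19 (1.18 to 1.2) and 1.09 (1.08 to 1.11). The 430 genes of like level and length had log2 quartiles of -0.24 and 0.12 for miR-182-5p against NC, and FASN at 0.25 lay above them. For miR-183-5p against NC the quartiles were -0.12 and 0.05, and FASN was at 0.13.

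SCD, ENSG00000099194 at chr10:100347233-100364826 (plus strand), encodes stearoyl-CoA desaturase, which turns stearate and palmitate into the monounsaturated oleate and palmitoleate. It was counted 109443 times with miR-182-5p, 102635 times with miR-183-5p and 79706 times with NC. This single gene took 0.177%, 0.152% and 0.124% of all counts, out of 0.419%, 0.384% and 0.342% for the 10 genes together. The ratio to NC was 1.44 (1.42 to 1.45) for miR-182-5p and 1.23 (1.22 to 1.24) for miR-183-5p, and the ratio of miR-182-5p to miR-183-5p was 1.17 (1.16 to 1.18). The 3 libraries were thus ordered as for FASN, with wider steps. On the log2 scale SCD stood at 0.52 for miR-182-5p against NC, where the same 430 genes had a median of -0.07.

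SCD also stood high among the most abundant genes of the cells. Of 227 genes with a mean FPKM of at least 100, 9 had a higher ratio than SCD for miR-182-5p against NC, and all 9 were mitochondrially encoded. No nuclear gene of the 197 in that range was higher, and their median log2 ratio was -0.32. For miR-183-5p against NC, 16 genes were higher, again all mitochondrially encoded, with a nuclear median of -0.14. Between the microRNAs 7 genes were higher, 6 of them mitochondrial, and the remaining nuclear gene was SERPINA1. This ranking was made after the values were seen. It goes with a shift of the whole library by level, since the median log2 ratio for miR-182-5p against NC was 0.09 in genes of 1 to 5 FPKM, -0.07 from 5 to 20, -0.19 from 20 to 100 and -0.28 from 100 upward. The part of mitochondrial transcripts and of this shift in the result was not tested. The SCD log2 ratio was 0.58 with mitochondrial counts left out of the totals, 0.46 with median-of-ratios size factors and 0.45 with TPM made from the FPKM. In bulk RNA, a change in the share of cells that express a gene and a change in RNA per cell cannot be told apart.

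**Figure D3:**
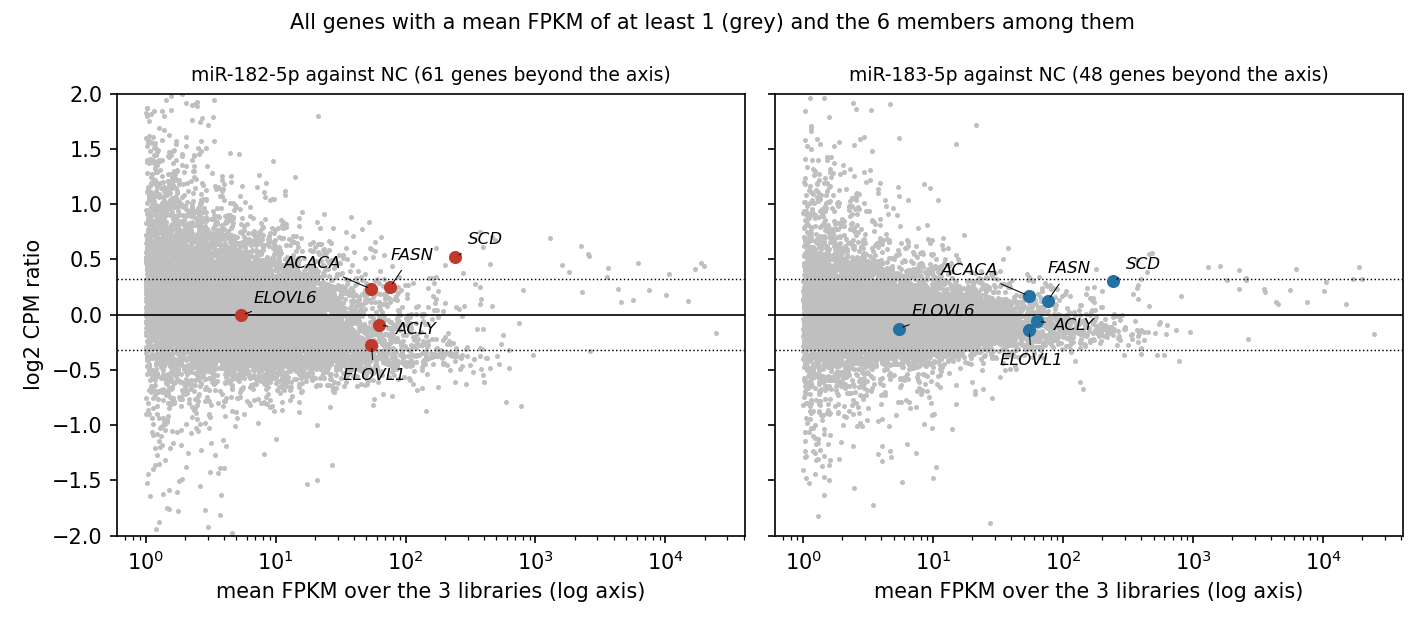
Log2 CPM ratio to NC against mean FPKM (log axis) for the 12675 genes with a mean FPKM of at least 1, in grey, with the 6 enzymes in colour and dotted lines at the sizes called; genes beyond the vertical axis are counted in the panel titles. The grey cloud drifts below 0 toward high levels in the left panel, while SCD lies above it and below some points at its right, and ELOVL1 lies within it.

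ELOVL1, ENSG00000066322 at chr1:43363398-43368074 (minus strand), elongates saturated and monounsaturated very long chains for sphingolipids. It had 9134, 10958 and 11521 counts, or 49.8, 54.7 and 59.3 FPKM. The order was the reverse of that of SCD and FASN. The ratios to NC were 0.829 (0.806 to 0.852) and 0.910 (0.887 to 0.934). Its lower level with miR-182-5p was shared by genes of its kind, since 342 genes of like level and of 1500 to 3000 nt had a median log2 ratio of -0.29, beside -0.27 for ELOVL1. For miR-183-5p the values were -0.14 for these genes and -0.14 for ELOVL1.

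ELOVL6, ENSG00000170522 at chr4:110045846-110198653 (minus strand), elongates palmitate to stearate and so feeds SCD. Its counts were 2999, 3016 and 3150, and its levels 5.63, 5.19 and 5.58 FPKM. The miR-182-5p and NC libraries did not differ beyond counting error, with a ratio of 0.995 (0.947 to 1.05). Its message holds the 3 miR-182-5p seed matches printed above. The lower library was miR-183-5p, for which it holds no match, with a ratio to NC of 0.916 (0.871 to 0.963). SCD, with a miR-183-5p match, was higher with miR-183-5p than with NC. Whether a match had a part in any of these levels was not tested.

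The enzymes of polyunsaturated fatty acids, ELOVL5, FADS1 and FADS2, had few counts in every library. ELOVL5, ENSG00000012660 at chr6:53267398-53349179 (minus strand), which elongates polyunsaturated chains, had 21 counts with miR-182-5p and was listed at 0 in the other two libraries. A count of 0 allows up to 3 counts, or 0.0445 CPM with miR-183-5p and 0.0465 CPM with NC. Against that floor, taken per library and with the 21 counts as they stand, ELOVL5 was at least 7.32-fold higher with miR-182-5p than with NC and at least 7.65-fold higher than with miR-183-5p. With the counting error of the 21 counts included, the exact 95% intervals reach down to 5.44 and 5.69. At 0.0736 FPKM it was nevertheless a trace level. ELOVL5 overlaps RPS16P5, a transcribed pseudogene on its own strand that has no listed counts, so reads of the pseudogene cannot be told apart from its own.

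FADS1, ENSG00000149485 at chr11:61799627-61829318 (minus strand), is the delta-5 desaturase. It had 103, 112 and 67 counts, or 0.133, 0.134 and 0.0808 FPKM, and ratios to NC of 1.61 (1.17 to 2.22) and 1.6 (1.17 to 2.20). FADS2, ENSG00000134824 at chr11:61792980-61867354 (plus strand), is the delta-6 desaturase that opens the same route. It had 43, 74 and 88 counts, or 0.0547, 0.0867 and 0.104 FPKM. Its ratio to NC was 0.511 (0.346 to 0.744) for miR-182-5p and 0.805 (0.583 to 1.11) for miR-183-5p, the latter including 1. FADS1 was thus lowest and FADS2 highest with NC.

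Position in the genome limits these low values. FADS2 overlaps FADS1 on the opposite strand and, on its own strand, FEN1, a DNA repair nuclease with 5539, 7033 and 7779 counts whose CPM had the same order as that of FADS2 (89.8, 104 and 121). How the authors treated strand and shared reads is not given in the sources used here, so reads of these neighbours cannot be told apart from those of FADS2. The table also lists few transcripts for these genes: 1 of 7 annotated in GENCODE 29 for ELOVL5, 9 of 21 for FADS1 and 4 of 15 for FADS2. Short lists are common among genes at low level, with a median of 36.4% of annotated transcripts for genes under the filter that have at least 5, against 84.6% for genes above it that have at least 5. ELOVL5, at 14.3%, lay below the lower quartile of those under the filter, 16.7%. FADS1 at 42.9% and FADS2 at 26.7% lay above that quartile. Whether short lists lowered the counts of ELOVL5, FADS1 and FADS2 was not tested. SCD and FASN overlap no other annotated gene, and ACACA overlaps only genes with at most 79 counts per library where the table lists them.

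The promoters of the gene with the highest and the gene with the lowest ratio for miR-182-5p against NC among the 6 are printed, from 250 bases before to 50 bases after the annotated start (RefSeq, GRCh38.p14). Capitals mark CCAAT, the box bound by NF-Y, a factor known to act beside SREBPs at lipogenic promoters.
SCD, chr10:100346983-100347282, plus strand: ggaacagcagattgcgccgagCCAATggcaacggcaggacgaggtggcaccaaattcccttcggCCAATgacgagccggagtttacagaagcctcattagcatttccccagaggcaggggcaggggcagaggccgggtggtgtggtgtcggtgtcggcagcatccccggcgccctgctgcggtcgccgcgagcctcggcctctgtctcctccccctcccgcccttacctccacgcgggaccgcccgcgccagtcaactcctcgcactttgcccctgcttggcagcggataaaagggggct
ELOVL1, chr1:43367962-43368261, minus strand: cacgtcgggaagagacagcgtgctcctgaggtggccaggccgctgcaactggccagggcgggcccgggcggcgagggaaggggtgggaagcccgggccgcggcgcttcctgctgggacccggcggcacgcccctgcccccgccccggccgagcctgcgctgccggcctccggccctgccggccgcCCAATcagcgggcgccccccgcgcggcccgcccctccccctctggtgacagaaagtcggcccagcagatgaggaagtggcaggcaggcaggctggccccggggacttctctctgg
SCD holds 2 CCAAT boxes, whose first bases lie at -229 and -186 from the start, and ELOVL1 holds 1 at -65. Such a box was found on either strand in 34.6% of 35116 promoters of this length. The letters TCACNCCAC, 1 form of the sterol regulatory element, were found in 1.13% of promoters and in none of the 14 listed windows of the enzymes. The E-box CACGTG, held by 7.26% of promoters, was found in ELOVL5 alone, and the GC box GGGCGG, held by 45.0%, was found 2 times in SCD and 5 times in ELOVL1. None of these motifs contains another, and no match says only that these letters are not in this window. FASN had no entry.

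Upstream of the enzymes, regulators of lipogenesis were counted in a list of 17 genes, of which 15 had a mean FPKM of at least 1. With miR-182-5p against NC, 3 of the 15 were at least 25% higher, namely SREBF1, INSIG1 and MLXIPL, and 1, MLX, was lower. Over all genes tested these shares were 18.5% and 15.1%, so the number called was near the background. The list's median log2 ratio was 0.10 beside -0.02 over all genes. With miR-183-5p against NC none was called in either direction, where 7.97% of all genes tested were higher and 6.85% lower. The list's median there was -0.05 beside -0.03.

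SREBF1 encodes SREBP-1, the form that drives fatty acid genes. Its levels were 25.3 FPKM with miR-182-5p, 21.1 with miR-183-5p and 16.8 with NC, giving ratios to NC of 1.48 (1.44 to 1.52) and 1.23 (1.2 to 1.26). The order of the libraries was that of SCD and FASN. On the opposite strand it overlaps RAI1, at 6173, 6693 and 6295 counts. INSIG1, an SREBP target that retains the SCAP-SREBP complex in the endoplasmic reticulum, differed in pattern, with 24.3, 17.9 and 18.2 FPKM. It was higher with miR-182-5p (1.31, 1.27 to 1.36) but not with miR-183-5p (0.966, 0.930 to 1.0). Its 3' UTR holds 1 match to the miR-182-5p seed. SREBF2, whose product mainly serves cholesterol synthesis, was at 26.5, 25.4 and 24.3 FPKM and SCAP at 11.7, 10.8 and 10.1, and neither was called in either comparison.

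MLXIPL, which encodes the carbohydrate-responsive factor ChREBP, had the highest ratio of the list at 1.70 (1.54 to 1.88) for miR-182-5p and 1.22 (1.10 to 1.36) for miR-183-5p, from 1.69 FPKM with NC. MLXIPL overlaps an intronic RNA of its own strand, with at most 34 counts per library. Its dimer partner MLX overlaps PSMC3IP on the opposite strand, at 866, 1208 and 932 counts. MLX had the lowest ratio for miR-182-5p, 0.792 (0.759 to 0.827), and stood at 0.918 for miR-183-5p. MLXIPL and MLX each hold 1 miR-182-5p match, followed by an A in MLX but not in MLXIPL, and they lay on opposite sides of NC. The regulators MBTPS2, PRKAA1 and PRKAA2 also hold 1 such match each, followed by an A in PRKAA2 only. They were not called with miR-182-5p against NC. The part of such matches in the levels of these regulators was not tested. INSIG2, the second retention protein, was the lowest of the list with miR-183-5p at 0.827 (0.776 to 0.882).

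Genes that supply citrate, acetyl-CoA and NADPH lay on both sides of NC. Of 11 genes, all measured, 1 was at least 25% higher and 1 at least 20% lower with miR-182-5p than with NC. These are fewer than the 18.5% and 15.1% of all genes. None was called with miR-183-5p, where 7.97% of all genes were higher and 6.85% lower. The median log2 ratios were -0.12 and -0.06, beside -0.02 and -0.03 over all genes. ACSS2, which makes acetyl-CoA from acetate, was the gene on the higher side, at 5.44, 4.12 and 3.56 FPKM and a ratio of 1.51 (1.41 to 1.61) with miR-182-5p. It overlaps GGT7 on the other strand. PGD, an NADPH-forming dehydrogenase of the pentose phosphate pathway, was the gene on the lower side, at 0.717 (0.697 to 0.738). The mitochondrial citrate carrier SLC25A1 lay at 147, 145 and 153 FPKM, and malic enzyme ME1 at 7.95, 8.94 and 8.53, and neither was called in either comparison. The lowest of the list with miR-183-5p was IDH1, another NADPH-forming dehydrogenase, at 0.881 (0.863 to 0.900).

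Other elongation enzymes were few in the table. Of 6 measured genes, 1 was at least 25% higher and 0 lower with miR-182-5p, the elongase ELOVL7 (1.28, 1.2 to 1.37), and with miR-183-5p 1 was higher, ELOVL3 (1.34, 1.09 to 1.66), at 1.98 against 1.45 FPKM. With 6 genes, 1 call is near the 18.5% of all genes called higher with miR-182-5p and does not set the list apart from the 7.97% with miR-183-5p. ELOVL3 was also the lowest of the list with miR-182-5p at 0.840 (0.660 to 1.07), an interval that includes 1. The reductases and dehydratases HSD17B12, HACD2, HACD3 and TECR, which complete each round of elongation, were called with neither microRNA.

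Among 8 measured genes of other desaturases and of the cytochrome b5 electron chain that serves SCD, 1 was higher and 1 lower with miR-182-5p, and 0 higher and 1 lower with miR-183-5p. The counts are near the shares over all genes, 18.5% higher and 15.1% lower with miR-182-5p and 7.97% and 6.85% with miR-183-5p. The sphingolipid desaturase DEGS2 was the higher gene at 1.27 (1.17 to 1.37), and at 1.13 the highest with miR-183-5p without being called. DEGS2 overlaps EVL on the other strand, at 626, 642 and 750 counts. The reductase CYB5R4 was the lower gene in both comparisons, at 0.726 (0.671 to 0.786) and 0.767 (0.711 to 0.827). FADS3, a paralogue of FADS1 and FADS2, was measured at 5.06, 4.36 and 4.11 FPKM, and SCD5, the second human stearoyl-CoA desaturase, was at 0.669, 0.529 and 0.832 FPKM. Per length, SCD was therefore far above SCD5 in every library.

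Genes that take up, activate or bind fatty acids were counted next. Of 12 measured, 2 were higher (SLC27A1 and SLC27A3) and 3 lower (FABP5, ACBD3 and ACOT7) with miR-182-5p, with a median log2 ratio of 0.12, and with miR-183-5p 1 was higher and 0 lower, with a median of -0.01. Over all genes tested 18.5% were higher and 15.1% lower with miR-182-5p, and 7.97% and 6.85% with miR-183-5p. Counts of so few genes do not set the list apart from these shares. The extremes with miR-182-5p were the transporter SLC27A1 at 1.42 (1.27 to 1.58) and the carrier protein FABP5 at 0.637 (0.595 to 0.682). On the other strand SLC27A1 overlaps a noncoding RNA with at most 214 counts per library, and FABP5 an antisense RNA with at most 20. SLC27A3 was the higher gene with miR-183-5p at 1.33 (1.21 to 1.45), and it overlaps INTS3 on its own strand, while FABP5 was the lowest at 0.817 (0.767 to 0.869).

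Of 15 measured genes that build or break glycerolipids, 2 were higher and 2 lower with miR-182-5p, both below the shares over all genes (18.5% and 15.1%). The phosphatidate phosphatases LPIN1 and LPIN3 were the higher ones, at 1.58 (1.51 to 1.64) and 1.57 (1.46 to 1.68), and the acyltransferases GPAT3 and AGPAT2 the lower ones, at 0.714 (0.661 to 0.772) and 0.774 (0.744 to 0.806). With miR-183-5p 1 gene was called higher, LPIN3, at 1.31 (1.22 to 1.41), beside 7.97% of all genes, and none lower, beside 6.85%. AGPAT2 was the lowest at 0.818 (0.787 to 0.850). The medians were 0.03 for each microRNA. DGAT1, which makes triglyceride, was called with neither microRNA.

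Of 15 measured oxidation genes, 1 was higher and 2 lower with miR-182-5p, with a median log2 ratio of -0.18, and 1 higher and 0 lower with miR-183-5p, with a median of -0.07. Both counts with miR-182-5p are below the shares over all genes, 18.5% and 15.1%, and the medians of all genes were -0.02 and -0.03. With miR-183-5p the shares over all genes were 7.97% and 6.85%. CPT1B, a carnitine palmitoyltransferase, was the higher gene in both (1.96, 1.74 to 2.21, and 1.40, 1.24 to 1.59), but it lies within the read-through gene CHKB-CPT1B on its strand, so its reads may be shared. SLC25A20, the carnitine carrier, and ECHS1, an enoyl-CoA hydratase, were the lower genes at 0.736 (0.635 to 0.852) and 0.746 (0.724 to 0.770). The lowest with miR-183-5p was the thiolase ACAA2 at 0.821 (0.790 to 0.854). Of 7 genes of the separate mitochondrial synthesis route, none was higher and 1, MECR, was lower with miR-182-5p at 0.747 (0.677 to 0.824), beside 15.1% of all genes; the highest was CBR4 at 1.19 (1.10 to 1.29). No gene of that route was called with miR-183-5p, beside 7.97% higher and 6.85% lower over all genes. ACSF3 was the highest there at 1.11 (1.05 to 1.16) and HSD17B8 the lowest at 0.837 (0.698 to 1.0). MECR overlaps an antisense RNA with at most 18 counts per library.

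Between the microRNAs, the same lists had these extremes, where 12.3% of all genes were called higher with miR-182-5p and 5.74% lower. Among regulators MLXIPL was highest at 1.40 and MLX lowest at 0.864, and INSIG1 (1.36) and INSIG2 (1.26) were called too. In the supply list ACSS2 was at 1.32 and PGD at 0.795, and in the elongation list ELOVL7 was at 1.22 and ELOVL3 at 0.625. Each extreme but ELOVL7 and MLX was called. The desaturation list ran from CYB5R3 at 0.876 to FADS3 at 1.16 with no call. Fatty acid activation ran from FABP5 at 0.780 to SLC27A1 at 1.34, and glycerolipid synthesis from GPAT3 at 0.758 to LPIN1 at 1.32. Oxidation ran from SLC25A20 at 0.778 to CPT1B at 1.40, and mitochondrial synthesis from MECR at 0.747 to HSD17B8 at 1.29, all of them called.

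**Figure D4:**
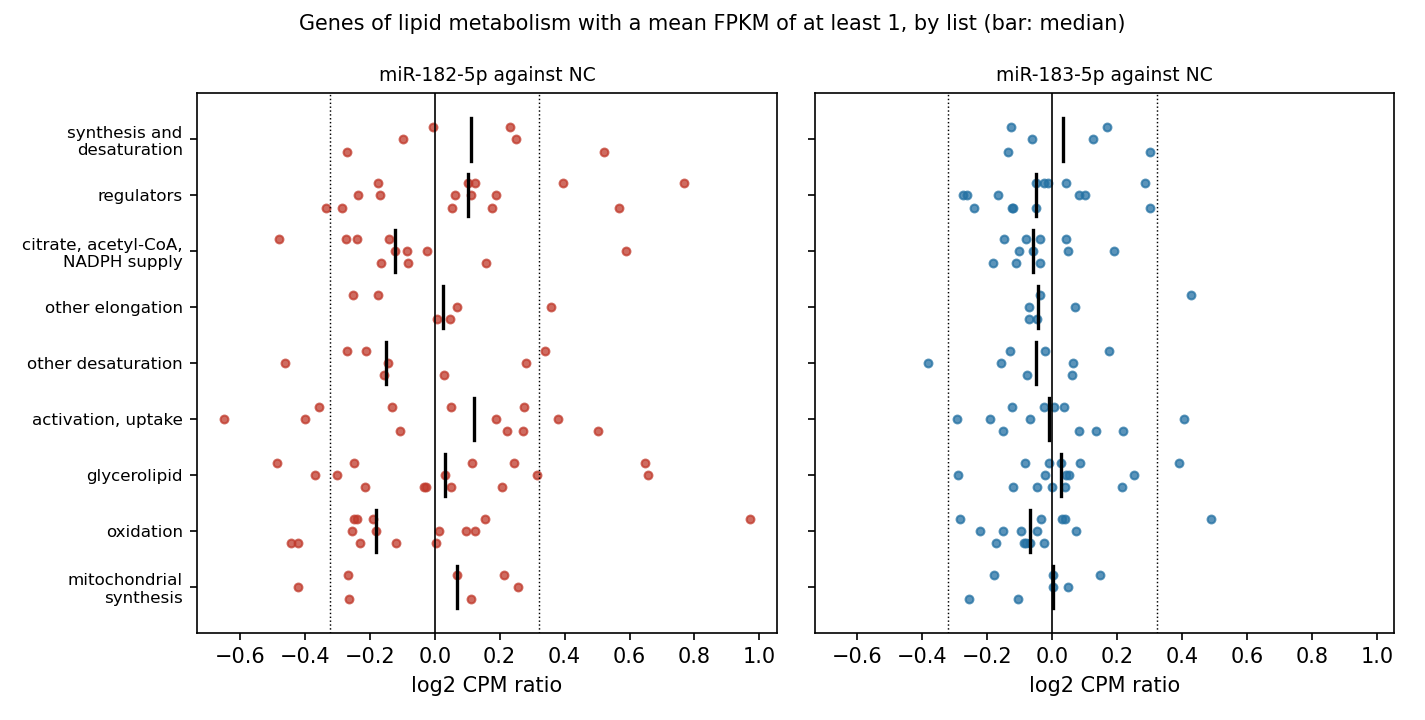
Log2 CPM ratio to NC of every gene with a mean FPKM of at least 1 in each list of lipid genes (1 point per gene, black bar at the list's median, dotted lines at the sizes called), for miR-182-5p on the left and miR-183-5p on the right. Points spread wider in the left panel, the medians run from -0.18 (oxidation) to 0.12 (activation and uptake) there, and most points lie between the dotted lines in both panels.

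The pathway labels in the authors' deposited table were counted for genes outside the 10. Under the label for fatty acid biosynthesis 6 further genes were measured, and none was called with either microRNA, with a median log2 ratio of 0.21 for miR-182-5p. Under the label for unsaturated fatty acids 14 were measured, of which 1 was higher and 2 were lower with miR-182-5p, with a median of -0.11, and 1 higher (ELOVL3) and 0 lower with miR-183-5p. Under the label for elongation 18 were measured, 2 higher and 3 lower with miR-182-5p, with a median of -0.16, and again ELOVL3 alone with miR-183-5p. None of these shares is above the 18.5% higher with miR-182-5p, and the lower shares are near 15.1%. With miR-183-5p 7.97% of all genes were higher and 6.85% lower. The lists share genes with each other and with those above.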

How the data were processed

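RNA-seq was made from total RNA of QBC-939 cells, 1 library per group, and whether these were separate cultures is not stated. The gene counts and FPKM values were deposited by the authors, per the file headers. The submitters' processing notes name cutadapt 1.9 and FastQC and the mouse build GRCm38, although the gene identifiers are human. For the aligner, the counter and the strand setting no source used here gives a name. Of the identifiers, 97.3% are in GENCODE 29, and all 10 enzymes lie on the same chromosome and strand there, with starts or ends shifted by at most 546 nt. Coordinates are those of the deposited table.

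CPM was computed as counts over the library total, and ratios with exact 95% intervals conditional on the summed counts. A gene with a mean FPKM of at least 1 was called when its level was at least 25% higher or at least 20% lower, a rule of size and no test. A count of 0 was given a floor of 3 counts. Implied transcript length was taken from the counts and FPKM. It is the length by which the FPKM was scaled and need not be that of any single transcript. For ACACB, FADS1 and FADS2 it was 17271, 12509 and 12732 nt, and a longer one gives a lower FPKM for the same counts. Whether this placed them under the filter was not tested. Ranges of level and length set beside a gene were chosen after the values were seen. The intervals and calls were checked on data simulated with counting error alone, the error that the intervals assume. That check therefore does not cover spread between replicates. The enzymes, the lists and the tests were chosen with earlier results of these data known. Of each list the text names the highest and lowest ratio in each comparison and 7 genes given in every case (SREBF1, SREBF2, SCAP, INSIG1, SLC25A1, ME1, ACSS2); the deposited pathway labels are given by counts and medians, and other genes were named after their values were seen. A gene of the list on citrate, acetyl-CoA and NADPH supply is not reported here. Alternatives were other scalings, pseudocounts, filters, folds and removal of overlapping genes. Python 3.11.15, numpy 2.4.6, scipy 1.17.1, pandas 2.3.3 and matplotlib 3.10.9 were used.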

Additional observations from a re-analysis of the deposited data

How the results depend on the processing

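SCD was called higher for miR-182-5p against NC under every scaling, pseudocount and filter tried, and at 1.2-fold, but not at 1.5-fold, where 0 enzymes were called. Without a filter on low values 3 were called (SCD, ELOVL5, FADS1), and 1 was called lower (FADS2). Counts under the alternatives are given here without the share over all genes, so they say nothing of the set. ELOVL1 became the 1 enzyme called lower with size factors, with TPM or at 1.2-fold. The median log2 ratio, 0.11, became 0.17 with nuclear CPM, 0.0506 with size factors, 0.0411 with TPM, 0.24 without the filter and 0.39 over the 2 enzymes (SCD, FASN) that overlap no gene. For miR-183-5p against NC, SCD became the 1 enzyme called higher with nuclear CPM, with FPKM plus 0.1 or at 1.2-fold, and 2 were called without the filter (ACACB, FADS1). That median, 0.03, became 0.0765 with nuclear CPM, -0.0275 with TPM, 0.13 without the filter and 0.21 over enzymes without overlap. Between the microRNAs, 1 was called higher (ELOVL5) and 1 lower (FADS2) without the filter, and the median, 0.09, became 0.0222 with size factors, 0.0343 without the filter and 0.17 without overlap. The scalings moved the median of all genes by at most 0.07. For each comparison 30 ratios of single enzymes were recomputed. Of these, 27, 30 and 29 kept their sign for miR-182-5p against NC, miR-183-5p against NC and between the microRNAs. Their sizes were less stable. In the same order, 19, 16 and 5 moved outside the exact counting interval of the main ratio, and 11, 14 and 25 stayed inside. The choice of scaling or pseudocount thus often shifted a ratio by more than its counting interval allows. No paired analysis was possible because each group has 1 library, and for the same reason no replicate could be left out. Depth limits ELOVL5, FADS1 and FADS2, with at most 112 counts per library.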
